A study of Mus musculus with 8 samples.

Results

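Eps8l1, Gpr50, B3gnt7, Cacna1h, Dock3, Fat3 and Lars2, 7 genes with a wide spread between the libraries of this study, were followed across all libraries and set beside the genes, cell-type markers and library measures whose levels ran with theirs. The 7 genes were chosen by the spread of their read counts over the 8 libraries, without regard to genotype, and each was found by exact symbol on 1 row among the 31854 rows of the deposited table. All 7 passed the filter on low counts, as did 15667 rows in all. Because the spread chose them, their SDs and ranges below are a description and carry no test.

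The libraries were made from total RNA of epididymal white adipose tissue, a visceral fat pad lying along the epididymis, taken from mice fed a high-fat diet. Of the 8, 4 libraries came from mice carrying a knock-in allele that replaces serine 273 of PPAR-gamma, the nuclear receptor that drives fat-cell differentiation, with alanine (S273A, replicates 2, 3, 4 and 6), and 4 came from wild-type mice (WT, replicates 1, 2, 3 and 5). Both groups had the high-fat diet, and no age was given in the sources used here. The labels do not say that the libraries of a group came from separate animals, so each p-value measures only how far these libraries differ, and that spread can be technical. Counts per gene cannot show the altered codon, so the genotype labels were not checked here.

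The libraries held 16161127 to 18194889 counts in S273A tissue and 14880239 to 17266209 counts in WT tissue, and between 19469 and 19896 rows had a count. Levels are given as CPM, a row's count as a share of its library's total after TMM scaling. Pearson's r of log2 CPM between pairs of libraries ran from 0.985 to 0.993. Fat-cell markers were abundant, with the 15 listed genes summing to 10760.5 to 14062.2 CPM in S273A libraries and 9277 to 14043.1 CPM in WT libraries. Of 17 epididymis and testis markers with a row, 7 were at 0 in every library, among them Lcn8, Crisp4 and Akap4, and 1 (Star) passed the filter. Adam7 did not pass it but reached 1.115 CPM in an S273A library, with means of 0.28 CPM in S273A and 0 CPM in WT libraries.

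As background, whole fat tissue holds fat cells together with fibroblast-like progenitors, vessels, nerves and a large share of immune cells, and obesity changes that mixture. The 7 genes work in different pathways: Gpr50, Cacna1h and Fat3 code for membrane proteins, Eps8l1 and Dock3 for regulators of the actin cytoskeleton, and B3gnt7 and Lars2 for enzymes. In bulk tissue, more cells of a type and more RNA per cell cannot be told apart.

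The SD of log2 CPM over the 8 libraries was 1.27 for Eps8l1, 0.99 for Gpr50, 0.86 for B3gnt7, 0.84 for Cacna1h, 0.82 for Dock3 and Fat3 and 0.67 for Lars2. The median SD over the 13753 rows whose log2 CPM averaged 1 or more was 0.13, and the 90th percentile was 0.31. The genes stood between rank 7 (Eps8l1) and rank 89 (Lars2) by this SD, so the label "most variable" holds loosely: 82 rows outside the set had a larger SD than Lars2, and 6 rows had a larger SD than Eps8l1. The row just above Eps8l1 was Gdf3 with 1.30 and the row just below Lars2 was Rnf43 with 0.67. Read counting alone would give an SD of 0.04 (Lars2) to 0.11 (Cacna1h). Per kilobase of the row's features, the mean level was highest for B3gnt7 (11.9 CPM per kb), then Lars2 (8.80), Gpr50 (5.12), Fat3 (1.66), Eps8l1 (1.59), Dock3 (1.37) and Cacna1h (1.12).

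**Figure D1:**
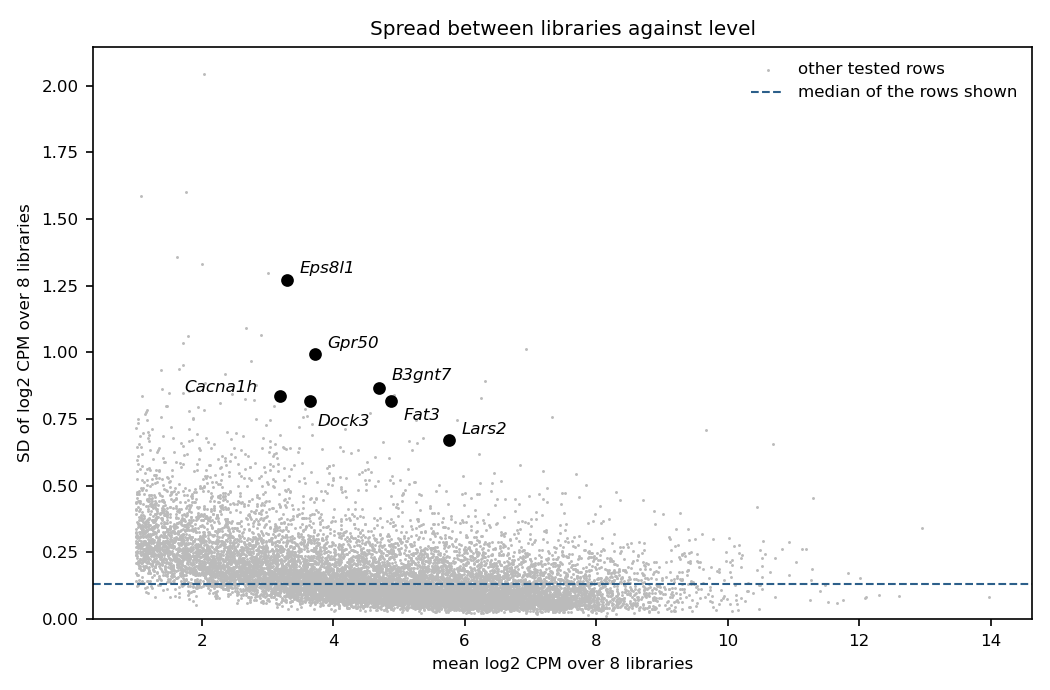
SD of log2 CPM over the 8 libraries (y) against mean log2 CPM (x) for the 13753 rows averaging 1 or more; grey points are rows, black points the 7 genes, and the dashed line the median SD. The 7 genes sit at SDs of 0.67 to 1.27, above the median of 0.13, with some grey rows above them.

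None of the 7 genes was called between genotypes, and the S273A and WT ranges overlapped for each one. Across the table, edgeR's quasi-likelihood test with Benjamini-Hochberg adjustment called 0% of 15667 rows at an adjusted p of 0.05, 1.46% (229 rows) had an unadjusted p under 0.05, and 1.19% had no overlap of CPM between the groups. DESeq2's Wald test called 1 row, not one of the 7, and limma-voom 0. Adjusted p by edgeR was 0.9999 for all 7. The log2 fold change, S273A over WT, was 0.54 for Dock3 (95% interval -0.67 to 1.74), 0.49 for Lars2 (-0.46 to 1.44), 0.49 for B3gnt7 (-0.75 to 1.72), -0.004 for Eps8l1 (-1.37 to 1.36), -0.02 for Fat3 (-1.04 to 1.00), -0.35 for Cacna1h (-1.45 to 0.74) and -0.61 for Gpr50 (-1.77 to 0.54). Every interval includes 0 and reaches at least 1.00 log2 unit in 1 direction or the other. The sign turned when 1 library was left out for Eps8l1, B3gnt7, Dock3, Fat3 and Lars2; without S273A 2 it was -0.45 for B3gnt7 and -0.37 for Dock3, and without S273A 4 it was -0.15 for Lars2.

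**Figure D2:**
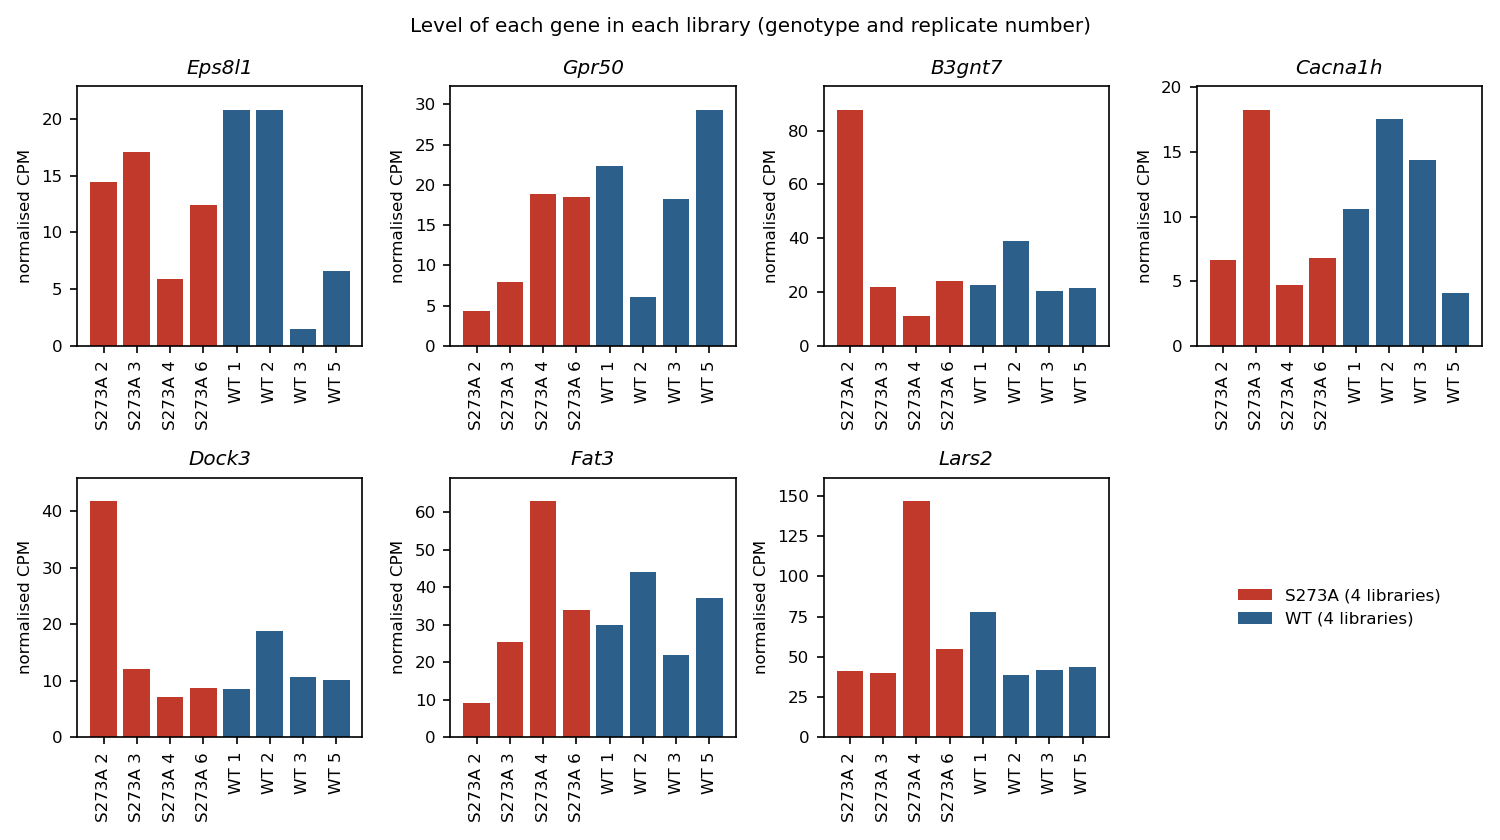
Normalised CPM (y, from 0, separate scale per gene) of each of the 7 genes in each library (x), S273A libraries in red and WT libraries in blue. B3gnt7 and Dock3 peak in S273A 2, Fat3 and Lars2 in S273A 4, and Eps8l1 is at its lowest in WT 3.

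Within this set, chosen for its spread, the extremes fell unevenly over the libraries. Of the 14 highest and lowest values of the 7 genes, S273A 2 held 4 (the highest of B3gnt7 and Dock3, the lowest of Gpr50 and Fat3) and S273A 4 held 4 (the highest of Fat3 and Lars2, the lowest of B3gnt7 and Dock3). WT 2 and WT 5 held 2 each, S273A 3 and WT 3 held 1 each, and S273A 6 and WT 1 held 0. B3gnt7 and Dock3, which moved together, count separately here. How often each library was highest or lowest over all rows was not computed.

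To describe what each gene ran with, Pearson's r and Spearman's rho over the 8 libraries were computed in 210 relations: the 21 pairs among the genes, and each gene with 23 marker or pathway scores and 4 library measures. A score is the mean over a list's genes of log2 CPM minus each gene's own mean. With exact two-sided permutation tests over the 40320 orders of the libraries, 20 relations had an unadjusted p under 0.05, and 0% had an adjusted p under 0.05; the smallest adjusted p was 0.226 for r and 0.156 for rho, and 0 relations were called by rho. Each r below is therefore a description of these 8 libraries. Separately, the 5 rows most like each gene were taken by highest r among the 2402 rows whose log2 CPM averaged 1 or more with an SD of at least 0.25, with no p, since they were picked for that r.

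Cacna1h codes for the pore subunit of the Cav3.2 low-voltage-activated calcium channel, on chr17:25374285-25433783, minus strand (GRCm38, the mm10 build). It had 6.63, 18.3, 4.71 and 6.77 CPM in S273A replicates 2, 3, 4 and 6, against 10.6, 17.6, 14.4 and 4.05 CPM in WT replicates 1, 2, 3 and 5. The level was high in S273A 3, WT 2 and WT 3 and low in WT 5 and S273A 4, with both genotypes at either end. The range from lowest to highest was 4.51-fold.

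The 5 rows most like Cacna1h included 3 known from antibody-secreting cells (Mzb1, abParts and Jchain). Mzb1, a chaperone of antibody assembly in plasma cells, followed it with r = 0.992 and the same order of libraries (rho = 1), and r was 0.997 without S273A 3 and WT 5, the extreme libraries. Mzb1 had 8.81, 25.9, 6.26 and 9.17 CPM in S273A replicates 2, 3, 4 and 6, against 13.5, 19.8, 18.3 and 5.93 CPM in WT replicates 1, 2, 3 and 5. Then came a pooled row of immunoglobulin segments (abParts, r = 0.985), Jchain, the joining chain of secreted IgA and IgM (r = 0.984), Psmb8, a catalytic subunit of the immunoproteasome (r = 0.983), and Derl3, of the degradation machinery of the endoplasmic reticulum (r = 0.981). Without the same 2 libraries these 4 had r of 0.973 to 0.995. In all, 93 of the 2402 rows had r of at least 0.9 with Cacna1h, the most for any of the 7 genes. Deviations from the genotype means were also compared between libraries, over all rows averaging 1 or more in log2 CPM. S273A 3 had r of 0.169, 0.556, -0.282 and -0.528 with WT 1, 2, 3 and 5. S273A 4 had r of -0.079, -0.400, 0.130 and 0.414 with the same libraries. The part of these wider differences in the likeness to Cacna1h was not tested.

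Several scores ran with Cacna1h. With the T and NK cell score, r was 0.919 (rho = 0.929 with p = 0.0022, exact permutation p of r = 0.0021, adjusted p = 0.226, n = 8), and r was 0.803 without S273A 4 and WT 5. All 12 tested genes of that list had a positive r with Cacna1h, from 0.50 for Ncr1 to 0.94 for Nkg7; its most abundant genes gave 0.75 for Cd4, 0.91 for Lck, 0.93 for Cd3e and 0.94 for Nkg7. With the B and plasma cell score, which contains Jchain and Mzb1, r was 0.762 (rho = 0.833 with p = 0.015, exact permutation p of r = 0.033, adjusted p = 0.408), and it was 0.436 without S273A 3 and WT 2, so that relation rested on those libraries. Inside that list the plasma-cell genes Jchain and Mzb1 gave 0.98 and 0.99, the B-cell surface genes Cd79b and Ms4a1 gave 0.80 and 0.59, and Cr2 and Fcer2a, both of mature B cells, gave 0.05 and 0.22. With the score of the type I interferon response, r was 0.805 (rho = 0.810 with p = 0.022, exact permutation p of r = 0.026, adjusted p = 0.398), and 0.697 without S273A 2 and WT 5. With the dendritic cell score, r was 0.766 (rho = 0.619 with p = 0.115, exact permutation p of r = 0.027, adjusted p = 0.398), but 0.258 without S273A 4 and WT 5. The score of the nuclear-encoded respiratory chain ran the other way, with r = -0.754 (rho = -0.667 with p = 0.083, exact permutation p of r = 0.030, adjusted p = 0.398), and -0.592 without S273A 4 and WT 2. None of these relations passed the adjustment, and they were not compared with one another. The summed T and NK markers ran from 67.0 to 146.6 CPM in S273A libraries and from 58.1 to 141 CPM in WT libraries; their part in the spread of Cacna1h was not tested.

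Cacna1h shares 158 exonic bases with Tpsg1, a mast-cell tryptase gene on the opposite strand, and the libraries carry no strand. The Tpsg1 row held 0.27 to 1.48 CPM per library, against 4.05 to 18.3 CPM for Cacna1h. The listed mast-cell markers gave r with Cacna1h from 0.03 (Mcpt4) to 0.39 (Tpsab1).

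Of 17 other subunits of voltage-gated calcium channels, 15 were tested and 0 were called between genotypes, 12 with a positive and 3 with a negative log2 fold change (median 0.14, against 0.00 over all tested rows). Their median SD over libraries was 0.25. The next widest were Cacna1s, the skeletal muscle pore subunit, with 0.73, and Cacna1i, another low-voltage-activated pore subunit, with 0.63. The 4 most abundant, Cacna1e, Cacna1a, Cacna1d and Cacna2d1, averaged 69.1, 59.7, 38.8 and 31.7 CPM in S273A libraries and 67.7, 53.3, 41.9 and 29.9 CPM in WT libraries.

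Gpr50, on chrX:71663667-71669257, plus strand, codes for an orphan receptor of the melatonin receptor family that does not itself bind melatonin and is best known from the hypothalamus and pituitary. It had 4.29, 7.98, 18.9 and 18.5 CPM in S273A replicates 2, 3, 4 and 6, against 22.3, 6.03, 18.2 and 29.4 CPM in WT replicates 1, 2, 3 and 5. The libraries S273A 2, WT 2 and S273A 3 were under 8 CPM and the other 5 above 18 CPM, with no value between. The range was 6.84-fold.

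The row most like Gpr50 was Dixdc1, a DIX-domain protein of Wnt signalling (r = 0.945), followed by Fcrls, a receptor of resident macrophages and microglia in mice (0.935), the neurexophilin Nxph3 (0.934) and Il13ra2, a decoy receptor for interleukin 13 (0.926). Without S273A 2 and WT 2, r of these 4 stayed between 0.732 (Il13ra2) and 0.922 (Fcrls). Fcrls averaged 23.4 ± 4.63 CPM in S273A libraries and 25.6 ± 5.23 CPM in WT libraries (SD, n = 4 each). The macrophage score gave r of 0.15 with Gpr50 (rho = -0.05, exact permutation p of r = 0.732, adjusted p = 0.926). Genes of that list ran both ways, from -0.78 (Lyz2) to 0.725 (Cd163). With the score of immediate early genes, r was 0.853 (rho = 0.905 with p = 0.0046, exact permutation p of r = 0.0056, adjusted p = 0.293, n = 8), and 0.734 without S273A 2 and WT 5. The most abundant genes of that list gave r of 0.51 (Junb), -0.05 (Atf3), -0.66 (Jun) and 0.71 (Btg2), so its genes did not all run one way. For the score of adipose progenitors and fibroblasts, r was 0.78 (rho = 0.667 with p = 0.083, exact permutation p of r = 0.027, adjusted p = 0.398), but 0.428 without S273A 2 and S273A 3.

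The melatonin receptor genes Mtnr1a and Mtnr1b had no count in any library. Of the 8 listed relatives and reported partners of Gpr50, 7 had a row, 3 were tested and 0 were called. Tgfbr1, a receptor of transforming growth factor beta, averaged 223 ± 9.08 CPM in S273A libraries and 231.6 ± 31.1 CPM in WT libraries. Lepr, the leptin receptor, averaged 6.76 ± 1.502 CPM in S273A libraries and 7.49 ± 1.13 CPM in WT libraries (SD, n = 4 each).

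Fat3 codes for a giant atypical cadherin of the Fat family, known from the shaping of neurons, on chr9:15910189-16501285, minus strand. It had 9.20, 25.4, 63.0 and 34.0 CPM in S273A replicates 2, 3, 4 and 6, against 29.9, 44.1, 22.0 and 37.1 CPM in WT replicates 1, 2, 3 and 5. The lowest and the highest value were both S273A libraries, 6.84-fold apart, with every WT library between them. Without S273A 2 the SD of log2 CPM was 0.51, against 0.82 over all 8 libraries.

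Gas7, a growth-arrest gene that binds actin and shapes cell outgrowths, followed Fat3 most closely (r = 0.989, and 0.962 without S273A 2 and S273A 4). It had 234.1, 333.3, 427.9 and 367.7 CPM in S273A replicates 2, 3, 4 and 6, against 328, 397.8, 300.5 and 369.6 CPM in WT replicates 1, 2, 3 and 5. The order of the libraries was nearly the same for both genes (rho = 0.976), over a narrower range for Gas7. Spon2, a secreted matrix protein (0.969), Mical2, an enzyme that oxidises actin (0.964), Zranb3, a helicase of stalled replication forks (0.955), and Plxdc1, a plexin-domain membrane protein (0.949), came next; without those 2 libraries, r was 0.782, 0.737, 0.635 and 0.938 in that order.

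With the mast cell score, r of Fat3 was 0.855 (rho = 0.810 with p = 0.022, exact permutation p of r = 0.0093, adjusted p = 0.326, n = 8), and 0.783 without S273A 2 and WT 2. Its granule protease genes gave r of 0.92 (Mcpt4), 0.87 (Cma1), 0.87 (Tpsb2), 0.84 (Cpa3) and 0.64 (Tpsab1). Of the rest of the list, Fcer1a, Ms4a2 and Hdc gave 0.88, 0.65 and 0.60, while Kit, the stem cell factor receptor, gave -0.08. With the score of adipose progenitors and fibroblasts, r was 0.780 (rho = 0.738 with p = 0.046, exact permutation p of r = 0.018, adjusted p = 0.398), but 0.415 without S273A 2 and S273A 3, so that it rested on those libraries. In that list Mfap5 and Pdgfra gave r of 0.95 and 0.85, whereas the abundant collagen genes Col1a1 and Col3a1 gave 0.19 and 0.22. Summed mast-cell markers ran from 139.4 to 244.5 CPM in S273A libraries and from 168 to 317.4 CPM in WT libraries; their part in the spread of Fat3 was not tested.

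Relatives of Fat3, a gene chosen for its wide spread, had smaller SDs. Of 6 other genes of the Fat and Dachsous cadherin group, 4 were tested, 0 were called, and their median SD was 0.11, with 0.20 for Fjx1, the mouse relative of a Drosophila regulator of these cadherins, as the widest. Fat1 averaged 322.8 ± 18.5 CPM in S273A libraries and 326.4 ± 19.7 CPM in WT libraries (SD, n = 4 each). Fat2 was at or under 0.18 CPM in each library.

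Eps8l1, on chr7:4460674-4480487, plus strand, codes for a relative of Eps8, an adaptor that links growth factor receptors to actin remodelling. It had 14.4, 17.1, 5.92 and 12.4 CPM in S273A replicates 2, 3, 4 and 6, against 20.8, 20.8, 1.44 and 6.63 CPM in WT replicates 1, 2, 3 and 5. The 2 highest values and the lowest were all WT libraries, 14.5-fold apart, and the S273A values lay between. WT 3 rested on 21 counts, and without it the SD of log2 CPM was 0.74, against 1.27 with it.

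The row most like Eps8l1 was Lrrc18, a leucine-rich-repeat protein (r = 0.980, and 0.916 without S273A 4 and WT 3). Its own range was narrow: 10.5, 11.7, 8.90 and 11.3 CPM in S273A replicates 2, 3, 4 and 6, against 11.5, 11.9, 7.18 and 9.33 CPM in WT replicates 1, 2, 3 and 5. Clic3, an intracellular chloride channel protein, had r = 0.953 and Ptprq, a receptor-type phosphatase, 0.906. The unnamed transcript AK138383 (0.912) and Qprt, an enzyme of NAD synthesis (0.909), fell to 0.538 and 0.455 without S273A 4 and WT 3.

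By rank, Eps8l1 ran most closely against the score of the nuclear-encoded respiratory chain, with rho = -0.952 (exact permutation p = 0.0011, adjusted p = 0.156, n = 8). Pearson's r for it was -0.670 (exact permutation p = 0.070, adjusted p = 0.589), and -0.719 without S273A 4 and WT 2.

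Measures of the library were also set beside Eps8l1. With the number of rows holding a count, r was 0.896 (rho = 0.571 with p = 0.151, exact permutation p of r = 0.011, adjusted p = 0.329, n = 8), but 0.423 without WT 1 and WT 3. With the percent of counts in the ribosomal RNA precursor row Rn45s, r was -0.847 (rho = -0.476 with p = 0.243, exact permutation p of r = 0.024, adjusted p = 0.398), and it turned to 0.465 without S273A 4 and WT 3. WT 3 had the smallest total of counts, the fewest rows with a count and, at 1.78%, the largest share of Rn45s, against 1.56% to 1.71% in the other 7 libraries; the part of these measures in the level of Eps8l1 was not tested. Without WT 3 alone, r with the number of rows holding a count was 0.570.

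Of 9 listed relatives and partners of Eps8l1, 8 were tested and 0 were called, 3 with a positive and 5 with a negative log2 fold change (median -0.01). Their median SD was 0.12. Eps8 averaged 86.8 ± 13.1 CPM in S273A libraries and 83.6 ± 2.93 CPM in WT libraries, and the Ras activators Sos1 and Sos2 had 92.2 and 93.1 CPM in S273A libraries and 95.6 and 93.2 CPM in WT libraries. The widest was Eps8l3, another relative, with an SD of 0.33.

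**Figure D3:**
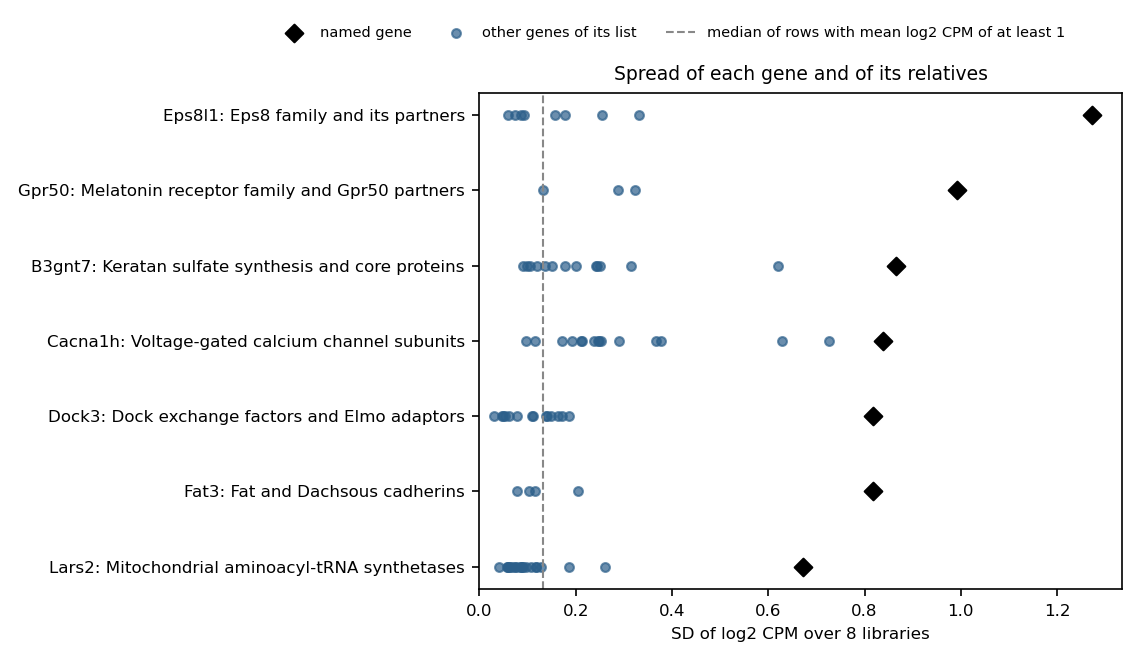
SD of log2 CPM over the 8 libraries (x) of each of the 7 genes (black diamonds) and of the tested genes of its family or pathway list (blue points), one row per list; the dashed line is the median of all rows whose log2 CPM averaged 1 or more. In each list the named gene, chosen for its spread, lies to the right of all its relatives, the nearest being Cacna1s at 0.73 and then Cacna1i at 0.63, both beside Cacna1h at 0.84.

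B3gnt7 and Dock3 peaked in the same libraries. B3gnt7, on chr1:86302832-86307305, plus strand, codes for an N-acetylglucosaminyltransferase that extends keratan sulfate chains, and Dock3, on chr9:106892825-107231909, minus strand, for an exchange factor that activates the small GTPase Rac, best known from neurons. The promoters of both are shown because the genes moved together; each is the RefSeq window (GRCm38.p6) from 250 bases before to 50 bases after the start, written on the gene's strand, at chr1:86302971-86303270 for B3gnt7 and chr9:107231860-107232159 for Dock3. Capitals mark CACGTG, letters found in the sites of several transcription factor families, among them the MiT/TFE factors, one of which is Tfec (below). Binding of any factor was not tested, and the bases beside the letters were not weighed.
B3gnt7: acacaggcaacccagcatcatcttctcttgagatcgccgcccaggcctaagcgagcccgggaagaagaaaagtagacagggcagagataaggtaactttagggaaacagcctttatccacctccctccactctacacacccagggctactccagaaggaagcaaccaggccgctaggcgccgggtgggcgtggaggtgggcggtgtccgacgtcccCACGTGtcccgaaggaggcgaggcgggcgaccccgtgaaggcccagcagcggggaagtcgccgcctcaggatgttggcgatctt
Dock3: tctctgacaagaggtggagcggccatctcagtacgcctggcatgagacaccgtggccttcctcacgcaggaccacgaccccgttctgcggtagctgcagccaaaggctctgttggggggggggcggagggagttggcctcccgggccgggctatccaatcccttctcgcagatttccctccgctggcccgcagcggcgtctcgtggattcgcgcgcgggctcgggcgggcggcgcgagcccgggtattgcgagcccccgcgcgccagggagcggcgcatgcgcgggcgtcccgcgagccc
CACGTG, which reads the same on both strands, occurred 1 time in the B3gnt7 window, starting at -34, and 0 times in the Dock3 window. It was present in 2349 of 32851 promoters of the same length (7.15%). Of the 7 genes, 6 matched the promoter table, with 8 promoters, and of those 6 genes B3gnt7 alone had the letters. Of the 9 rows most like B3gnt7 or Dock3, 6 had a promoter and 0 of these held them.

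B3gnt7 had 87.8, 21.7, 11.03 and 24.1 CPM in S273A replicates 2, 3, 4 and 6, against 22.6, 38.8, 20.2 and 21.6 CPM in WT replicates 1, 2, 3 and 5. Dock3 had 41.8, 12.1, 7.12 and 8.74 CPM in S273A replicates 2, 3, 4 and 6, against 8.49, 18.8, 10.7 and 10.2 CPM in WT replicates 1, 2, 3 and 5. In both genes S273A 2 was highest, WT 2 second and S273A 4 lowest, and the other 5 libraries lay between 20.2 and 24.1 CPM for B3gnt7 and between 8.49 and 12.1 CPM for Dock3. S273A 2 exceeded the next library 2.26-fold for B3gnt7 and 2.23-fold for Dock3; without it their SDs of log2 CPM were 0.53 and 0.45.

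Between the pair, r was 0.948 (rho = 0.619 with p = 0.115, exact permutation p of r = 0.0027, adjusted p = 0.226, n = 8), and 0.614 without S273A 2 and WT 2, so the closeness rested largely on those libraries. Gpr50 ran against Dock3, with r = -0.861 (rho = -0.833 with p = 0.015, exact permutation p of r = 0.0032, adjusted p = 0.226, n = 8), and -0.490 without S273A 2 and WT 2. Gpr50 against B3gnt7 gave r = -0.760 (rho = -0.595 with p = 0.132, exact permutation p of r = 0.017, adjusted p = 0.398), and -0.679 without S273A 2 and S273A 4. B3gnt7 against Fat3 gave r = -0.776, but 0.761 without S273A 2 and S273A 4, so the sign of that relation was set by those libraries (rho = -0.310 with p = 0.462, exact permutation p of r = 0.042, adjusted p = 0.491).

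The rows most like B3gnt7 were the zinc-finger gene Zfp575 (r = 0.984), 6330416G13Rik (0.9751), Mcoln3, a cation channel of endosomes and lysosomes (0.974), Gpcpd1, a phosphodiesterase of glycerophosphocholine (0.973), and Rragd, a GTPase that brings mTORC1 to the lysosome (0.971). Without S273A 2 and S273A 4 their r was 0.753 to 0.909, highest for Mcoln3. Mcoln3 had 32.4, 4.16, 2.99 and 6.95 CPM in S273A replicates 2, 3, 4 and 6, against 5.64, 14.3, 6.29 and 5.93 CPM in WT replicates 1, 2, 3 and 5. It thus shared the peaks of B3gnt7 in S273A 2 and WT 2, and its SD of 1.06 was larger than that of B3gnt7.

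The rows most like Dock3 were Hpse, heparanase, which cuts heparan sulfate (r = 0.972), the MiT/TFE factor Tfec (0.970), Zfp575 again (0.964), Epb41l3, a protein of the membrane skeleton (0.963), and Cxcr1, a chemokine receptor (0.963). Hpse had 125, 74.3, 44.3 and 61.5 CPM in S273A replicates 2, 3, 4 and 6, against 55.2, 87.9, 64.2 and 60.5 CPM in WT replicates 1, 2, 3 and 5. Hpse kept r = 0.942 without S273A 2 and WT 2, while Epb41l3 dropped to 0.395. Tfec was also the row with the lowest r to Gpr50, at -0.929.

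Against the score of adipose progenitors and fibroblasts, r was -0.751 for B3gnt7 and -0.737 for Dock3 (exact permutation p = 0.025 and 0.029, adjusted p = 0.398 for both, rho = -0.667 and -0.690 with p = 0.083 and 0.069), and -0.629 and -0.383 without S273A 2 and S273A 3. The summed level of that list was 6411 to 8449 CPM in S273A libraries and 6747 to 8365 CPM in WT libraries; its part in the spread of either gene was not tested. Annotated antisense genes overlap exons of B3gnt7 (Gm28626, 520 bases) and Dock3 (4930524O07Rik, 1082 bases), and reads of the 2 strands cannot be told apart.

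Of 20 other genes of keratan sulfate synthesis and its core proteins, 13 were tested and 0 called, 8 with a positive and 5 with a negative log2 fold change (median 0.05). Their median SD was 0.18, and the widest was B3gnt5, a lactosylceramide-extending relative, with 0.62. The most abundant core protein genes, Prelp, Lum and Ogn, averaged 739.6, 242.2 and 201.9 CPM in S273A libraries and 758.1, 231.6 and 208.6 CPM in WT libraries, and Kera was at 0 in each library. All 14 listed Dock, Elmo and Rac1 genes were tested, 0 were called, and their median SD was 0.11, with 0.19 for Dock2 as the widest. Dock8 and Dock2, the exchange factors of immune cells, averaged 483.5 and 340.2 CPM in S273A libraries and 512.4 and 360.7 CPM in WT libraries.

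**Figure D4:**
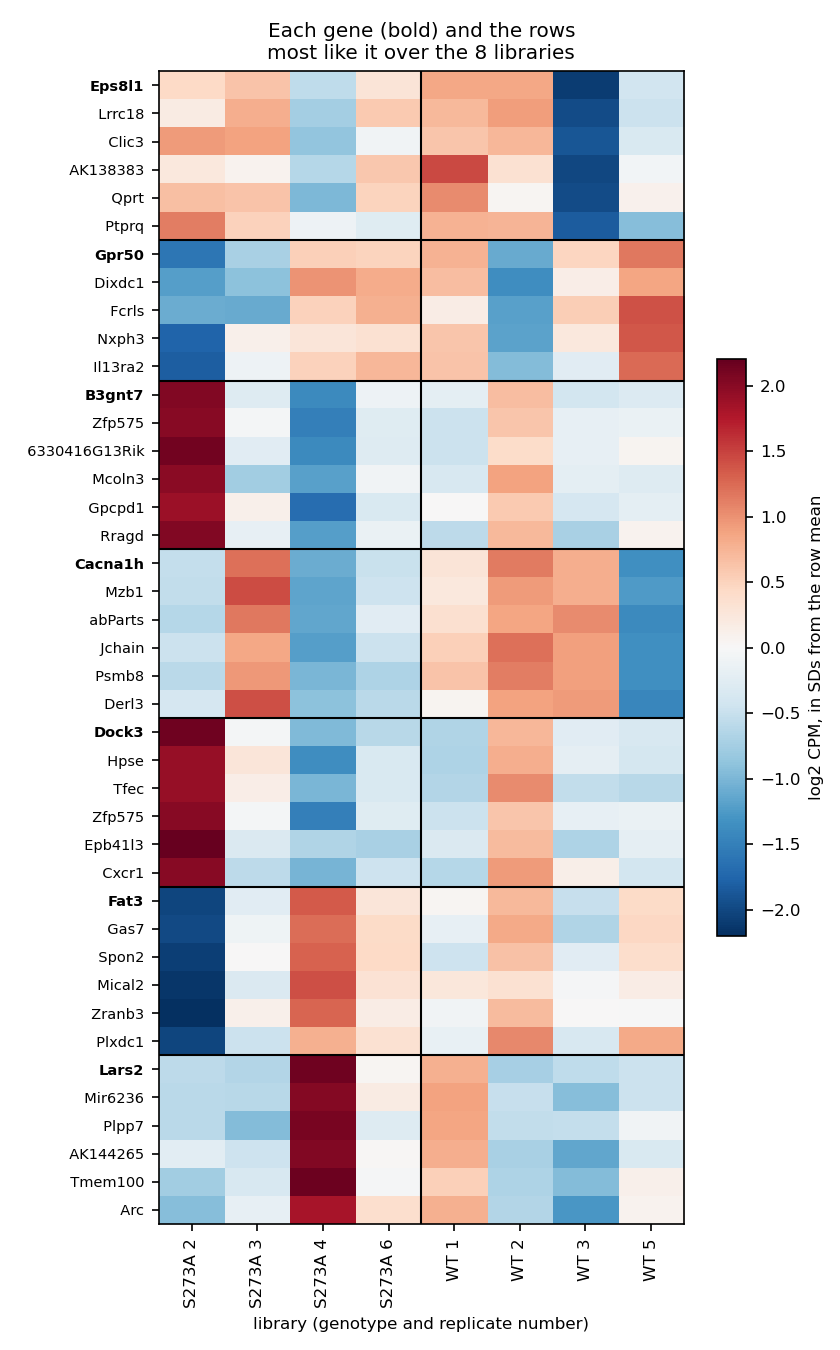
Log2 CPM in SDs from each row's mean (colour) for the 7 genes (bold) and the rows most like each (y, 5 per gene, 4 for Gpr50) in the 8 libraries (x, S273A left of the line, WT right). B3gnt7 and Dock3 blocks are darkest red in S273A 2, Lars2 and its rows in S273A 4, and the Eps8l1 block is darkest blue in WT 3.

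Lars2, on chr9:123366927-123462666, plus strand, codes for the enzyme that charges mitochondrial leucine tRNA. It had 41.2, 40.1, 146.7 and 55.1 CPM in S273A replicates 2, 3, 4 and 6, against 77.9, 38.5, 41.7 and 43.4 CPM in WT replicates 1, 2, 3 and 5. S273A 4 was 1.88-fold above the next library, WT 1, and 5 of the other 6 libraries lay between 38.5 and 43.4 CPM. Without S273A 4 the SD of log2 CPM was 0.36, against 0.67 with it.

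The row most like Lars2 was Mir6236 (r = 0.982, and 0.826 without S273A 4 and WT 1). It had 1.67, 1.63, 20.7 and 3.57 CPM in S273A replicates 2, 3, 4 and 6, against 7.06, 1.82, 1.16 and 1.88 CPM in WT replicates 1, 2, 3 and 5. Both rows were highest in S273A 4, then WT 1, then S273A 6. The row spans 123 bases of features, so its counts are not a measure of the mature microRNA, whose RefSeq sequence (GRCm38.p6, chr9:110281353-110281371, plus strand) is shown with its seed, bases 2 to 8, in capitals.
mmu-miR-6236: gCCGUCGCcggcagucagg
This sequence was not found in the coding transcripts of the 7 genes. The other rows most like Lars2 were the phosphatase-family gene Plpp7 (r = 0.971), the unnamed transcript AK144265 (0.962), Tmem100, a membrane protein of endothelial cells (0.950), and Arc, an immediate early gene (0.901). Without S273A 4 and WT 1 these 4 fell to r of 0.513 to 0.640. AK144265 had 2.79, 2.36, 15.4 and 3.38 CPM in S273A replicates 2, 3, 4 and 6, against 6.11, 1.93, 1.37 and 2.58 CPM in WT replicates 1, 2, 3 and 5.

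The Lars2 row has 6886 bases of features, against 3894 bases in the longest coding transcript. A stretch of 72 bases of that transcript, positions 3278 to 3349, is 98.6% identical to Gm15564, annotated as antisense but overlapping no exon of Lars2. Gm15564 was listed here with ribosomal RNA and rRNA-like genes, of which only Rn45s had a row. Another 50 bases are 96% identical to AA474408. The reads are 36 bases long, so reads from such stretches can match either place. With the percent of counts in Rn45s, r of Lars2 was 0.323 (rho = 0.214 with p = 0.619, exact permutation p of r = 0.421, adjusted p = 0.830, n = 8), and 0.194 without S273A 4 and WT 3. It was 0.859 without WT 3 alone and -0.165 without S273A 4 alone, so its size and sign depended on those libraries. The part of shared stretches in the Lars2 counts was not tested.

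Against Dock3, rho of Lars2 was -0.929 (exact permutation p = 0.0022, adjusted p = 0.156, n = 8), while r was -0.577 (exact permutation p = 0.143, adjusted p = 0.740), and -0.483 without S273A 4 and WT 1. With the score of pericytes and smooth muscle, r of Lars2 was 0.795 (rho = 0.857 with p = 0.011, exact permutation p of r = 0.0083, adjusted p = 0.326, n = 8), and 0.841 without S273A 4 and WT 1. All 11 genes of that list had a positive r with Lars2, from 0.24 (Kcnj8) to 0.74 (Acta2, smooth muscle actin). Pdgfrb, the platelet-derived growth factor receptor of pericytes, gave 0.44, and Rgs5 and Notch3, both of vessel-wall cells, gave 0.54 and 0.48. Summed, the list ran from 784.5 to 1113 CPM in S273A libraries and from 721.9 to 999.6 CPM in WT libraries; its part in the spread of Lars2 was not tested.

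The other listed enzymes that charge tRNAs, most of them mitochondrial, had smaller SDs than Lars2, a gene chosen for its wide spread. All 19 listed synthetases were tested, 0 were called, 10 had a positive and 9 a negative log2 fold change (median 0.00), and their median SD was 0.09, with 0.26 for Sars2 as the widest. Lars, the cytosolic leucine enzyme, averaged 68.2 ± 2.49 CPM in S273A libraries and 68.3 ± 1.45 CPM in WT libraries (SD, n = 4 each). Iars2, the mitochondrial isoleucine enzyme, averaged 125.5 ± 11.1 CPM in S273A libraries and 122.2 ± 8.31 CPM in WT libraries.

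**Figure D5:**
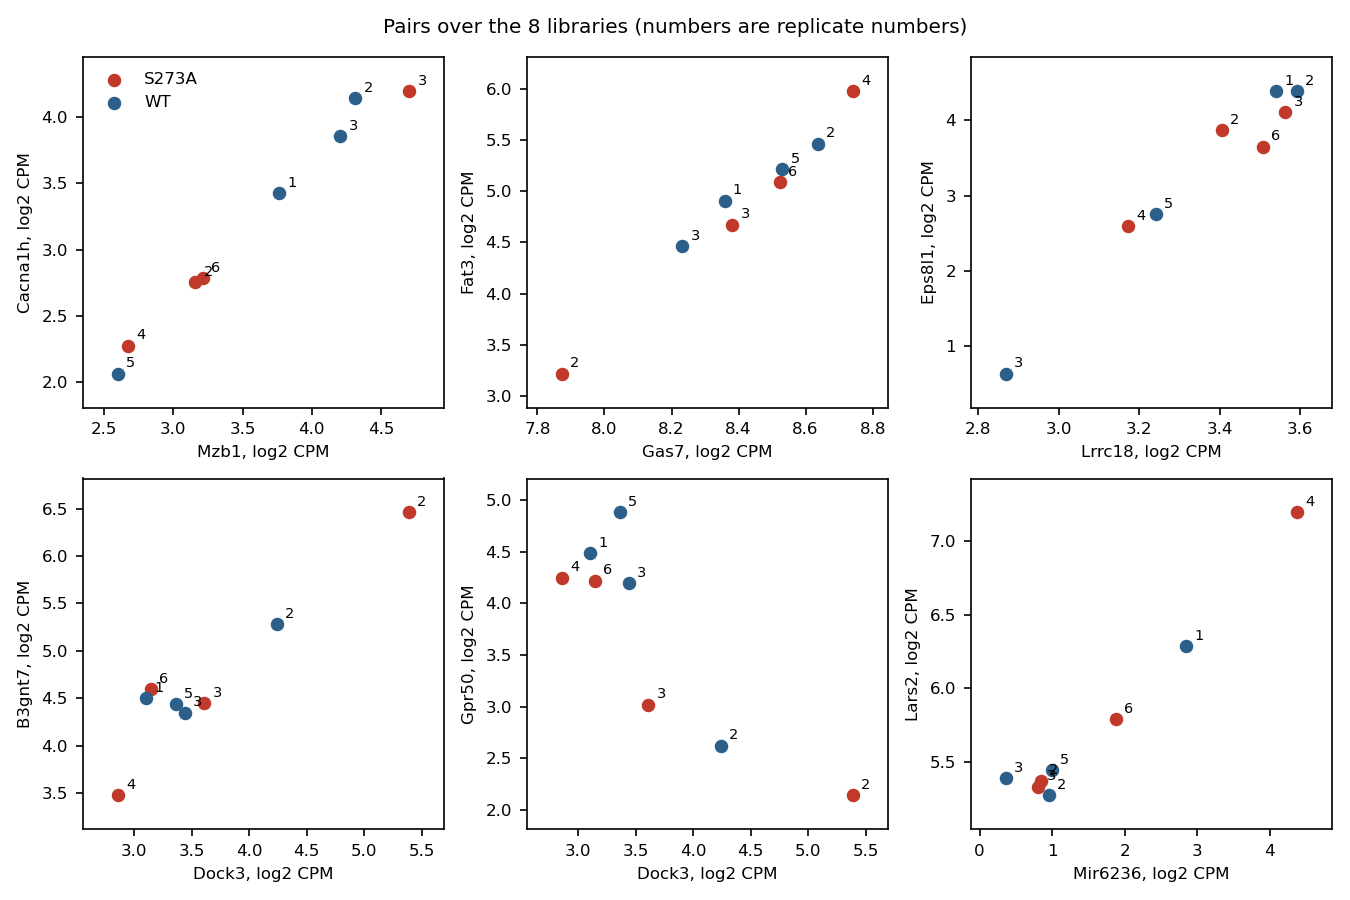
Log2 CPM of 6 pairs of rows over the 8 libraries, S273A in red and WT in blue, each point labelled with its replicate number. Cacna1h with Mzb1 and Fat3 with Gas7 form a line through all 8 points, B3gnt7 with Dock3 depends on S273A 2 and WT 2, Gpr50 falls as Dock3 is higher, and Lars2 with Mir6236 is drawn out by S273A 4 and WT 1.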

How the data were processed

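The deposited table holds raw counts, 1 row per gene and 1 column for each of 8 libraries. Ribosomal RNA was removed from 400 ng of total RNA and unstranded Nextera XT libraries were amplified over 12 cycles and read from both ends, 36 bases each, per the labels' protocols. The submitters' processing notes name featureCounts 1.5.2, HISAT2 2.0.5, edgeR 3.3.0, Picard 2.9.2 and bcl2fastq 2.20.0, without roles, and the build mm10. The treatment of duplicates and of reads at several places is not given in the sources used here. Another deposited column, the features' length per the file headers, served to put levels per kilobase.

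Counts were tested with edgeR 4.0.16 in R 4.3.3 (filterByExpr, TMM, robust glmQLFit, glmQLFTest) over 15667 rows with Benjamini-Hochberg adjustment; the steps were tested on simulated data. Genotype came from the genotype label and the replicate number from the title; no batch is labelled. Log2 CPM used a prior count of 2. Relations used exact permutation over library orders. Overlaps and coordinates came from the GENCODE annotation of GRCm38, similar stretches (at least 36 bases, 95% identity) from BLAST 2.17.0, and sequences from RefSeq. Of 411 list entries, 381 had a row; 3 of 26 score lists had fewer than 3 tested rows (epididymis and testis, other epithelium, ribosomal RNA) and gave no score. The 7 genes and all lists were chosen with earlier results of these data known. Named genes were the 7, the 5 rows most like each, and the most abundant of each list; other list genes named were chosen after their values were seen. A row among those most like Gpr50 and a list gene are not reported here. Alternatives were DESeq2 1.42.0, limma-voom (limma 3.58.1), other scalings, no filter, a prior count of 0.5, genotype means removed and leaving out each library. The depth of 14880239 to 18194889 counts gives the counting SDs stated with the spread.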

Additional observations from a re-analysis of the deposited data

Results flagged for a closer look

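Of the 14 groups of 4 libraries (7 genes in 2 genotypes) 6 held 1 library far from the other 3. The measure was the ratio of its gap to the group's whole range, in CPM. Chance marks about 1 in 20 groups of normally distributed values. That rate does not apply here, because the genes were chosen for their spread over these same libraries. The 6 groups are therefore a description and carry no test. All 6 stood on the high side. On the log2 scale used elsewhere these gaps take a smaller share of the range, and the rule was not applied there. In S273A tissue, B3gnt7 had 87.85 CPM in replicate 2 against 11.03 to 24.1 CPM in the other 3, and Dock3 had 41.81 CPM in replicate 2 against 7.12 to 12.1 CPM. Cacna1h had 18.28 CPM in S273A replicate 3, with 4.71 to 6.77 CPM in the others, and Lars2 had 146.7 CPM in S273A replicate 4, with 40.1 to 55.1 CPM in the others. In WT tissue, B3gnt7 had 38.84 CPM in replicate 2 against 20.2 to 22.6 CPM, and Lars2 had 77.91 CPM in replicate 1 against 38.5 to 43.4 CPM.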

How the results depend on the processing

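The count of rows called between genotypes was 0 with edgeR, with no filter, with either other scaling and with limma-voom, and 1 (Gdf3) with DESeq2's Wald test; it ranged from 0 to 1 over the fits that left out 1 library, with Gdf3 called without S273A 4. Called relations numbered 0 under every setting except without S273A 4, where 1 was called (Fat3 with the circadian clock score), so they ranged from 0 to 1. The log2 fold change of Eps8l1 turned to 0.009972 with DESeq2, 0.45 with limma-voom and 1.18 with the replicate block. Under that block only the replicate numbers shared by both genotypes inform the fold change. There the value for Fat3 was -1.003, against -0.02, and for Lars2 0.02, against 0.49. With limma-voom it was 0.10 for B3gnt7, against 0.49, 0.22 for Dock3, against 0.54, 0.32 for Lars2, against 0.49, and -0.30 for Fat3, against -0.02. Leaving out 1 library gave fold changes (log2) from -0.36 to 0.36 for Eps8l1, -0.45 to 0.79 for B3gnt7, -0.37 to 0.84 for Dock3, -0.55 to 0.29 for Fat3 and -0.15 to 0.78 for Lars2, and r of Lars2 with the Rn45s share from -0.165 (without S273A 4) to 0.859 (without WT 3). The cause of the shifts outside the replicate block was not tested. For Gpr50 and Cacna1h the sign held, at -0.91 to -0.32 and -0.94 to -0.08. All 140 likeness values and all 28 SDs under other scalings, the other prior count or with genotype means removed stayed inside the 95% interval of the main value. With 8 libraries that interval is wide, so this is a weak check.

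The genotypes share only replicate numbers 2 and 3. Same-numbered libraries deviated with r of -0.102 and -0.282, so the numbers were not treated as pairs. With the replicate block 0 rows were called. Its fold changes rest on those shared numbers alone, so that count says little about genotype. With 4 libraries per genotype, how far the number of libraries, depth and technical spread each limit the calls was not tested.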
